A study of Mus musculus with 9 samples.

Results

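Endothelial-to-mesenchymal transition (EndMT) genes were followed across 9 poly-A RNA-seq libraries of MCEC, an established line of mouse cardiac endothelial cells. The 10 genes were taken by name from the count table, out of 55487 genes: the transcription factors Snai1, Snai2, Twist1, Twist2, Zeb1, Zeb2 and Prrx1, and the markers Vim, S100a4 and Fn1. The 3 groups of 3 libraries were unmodified wild-type cells (WT), cells in which the zinc finger gene Zbtb46 was knocked down (KD) and cells that overexpressed it (OE). How the knockdown and the overexpression were made, whether each is a single clone, and whether replicates were separate cultures are not given in the labels, so p-values measure the spread between these libraries, which may be technical. Cells with a control vector were not analysed here.

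EndMT is the process by which endothelial cells lose junctions and gain the migratory, matrix-producing state of mesenchymal cells; it forms the cushions of the heart valves and has been linked to fibrosis and to tumour stroma. The SNAI, TWIST, ZEB and PRRX factors drive it. SNAI and ZEB proteins bind E-box sequences and mostly repress junction genes, TWIST proteins are basic helix-loop-helix factors that pair with E proteins, and PRRX1 is a homeodomain factor of mesenchyme. Vimentin (Vim) is the intermediate filament of mesenchymal cells, S100a4 encodes the calcium-binding fibroblast-specific protein FSP1, and fibronectin (Fn1) is a matrix glycoprotein bound by integrins.

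The data showed that the factors and the markers did not move as one block. Relative to WT, Snai1, Twist2 and Prrx1 fell in KD and rose in OE, and Snai2 was higher in OE. Vim moved the other way, higher in KD and lower in OE, and S100a4 was lower in OE. Twist1 was higher in both modified groups, Fn1 was lower in KD, Zeb2 was higher in KD and Zeb1 was lower in OE.

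The promoters of the 3 factors that fell in KD and rose in OE, and that of Vim, which did the reverse, are shown so that the regulatory sequence next to these genes can be compared. Each run holds 250 bases before and 50 bases after the RefSeq start on GRCm38.p6, 5′ to 3′ on the strand of the gene. They cover chr2:167537945-167538244 (plus strand) for Snai1, chr1:91801211-91801510 (plus) for Twist2, chr1:163313601-163313900 (minus) for Prrx1 and chr2:13574061-13574360 (plus) for Vim. Capitals mark the E-box that SNAI and ZEB factors are known to bind, CAGGTG, or CACCTG on the other strand.
Snai1: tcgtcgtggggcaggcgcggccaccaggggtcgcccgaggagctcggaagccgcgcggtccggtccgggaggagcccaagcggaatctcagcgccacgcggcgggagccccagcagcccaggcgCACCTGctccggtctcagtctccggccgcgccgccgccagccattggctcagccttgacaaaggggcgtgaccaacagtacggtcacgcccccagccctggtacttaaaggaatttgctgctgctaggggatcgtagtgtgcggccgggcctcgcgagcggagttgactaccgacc
Twist2: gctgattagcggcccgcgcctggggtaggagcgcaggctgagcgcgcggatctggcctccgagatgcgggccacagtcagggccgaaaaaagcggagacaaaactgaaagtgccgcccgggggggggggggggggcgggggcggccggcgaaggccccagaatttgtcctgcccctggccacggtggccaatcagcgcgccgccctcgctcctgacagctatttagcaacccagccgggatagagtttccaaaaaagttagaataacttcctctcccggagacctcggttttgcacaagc
Prrx1: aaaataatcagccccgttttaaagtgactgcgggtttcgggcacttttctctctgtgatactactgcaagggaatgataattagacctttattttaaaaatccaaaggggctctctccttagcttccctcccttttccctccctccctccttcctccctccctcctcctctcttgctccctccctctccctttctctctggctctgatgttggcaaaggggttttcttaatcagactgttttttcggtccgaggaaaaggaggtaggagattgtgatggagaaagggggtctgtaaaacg
Vim: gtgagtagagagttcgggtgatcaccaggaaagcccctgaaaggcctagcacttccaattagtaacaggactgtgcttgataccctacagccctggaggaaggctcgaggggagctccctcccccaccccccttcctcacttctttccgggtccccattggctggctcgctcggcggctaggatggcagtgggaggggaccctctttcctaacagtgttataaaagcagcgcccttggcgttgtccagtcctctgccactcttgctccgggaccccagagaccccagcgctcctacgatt
In these windows the E-box occurred 1 time, at position -126 of Snai1 relative to the start, and 0 times in the other 3, which also held 0 matches to the general E-box CANNTG. The first motif was present in 20.2% of all 32851 RefSeq promoter windows of 300 bases, and CANNTG, which includes it, in 72.3%. Both strands were covered, since CANNTG reads the same on each. RefSeq windows were found for 7 of the 10 genes; Snai2, Zeb1 and Fn1 had none in the table. The windows also differed in base composition: that of Snai1 had 70% G and C and 34 CpG sites and that of Twist2 64.7% and 25, while that of Prrx1 had 47.7% and 6 and that of Vim 59.3% and 11. The medians over all promoters were 52.7% and 7. Of the 3 factors that moved together, only Snai1 held the E-box, which most promoter windows lack. In G and C and in CpG sites Snai1 and Twist2 lay above the medians and Prrx1 below them. Shared regulation was not tested.

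Several facts of the series bear on all results. Total counts ran from 39491828 to 55745849 per library. Zbtb46, the targeted gene, had 13.6 ± 0.622 CPM in WT, 11.2 ± 0.536 in KD and 191 ± 2.67 in OE (SD, n = 3), so the KD libraries differed from WT far less in the targeted mRNA than the OE libraries did. CPM are counts per 1000000 counts of the library total after scaling with TMM factors. Ribosomal RNA features took 7.32% to 17.1% of counts in WT, 9.44% to 11.8% in KD and 14.2% to 18% in OE.

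The label of the cells as endothelial was checked against 18 endothelial genes. Erg, an endothelial ETS factor, had 0 counts in all libraries, and the endothelial cadherin gene Cdh5, Pecam1 (CD31) and Vwf reached at most 7, 10 and 6 counts in any library. Eng, the TGF-beta co-receptor endoglin, and Flt1, a VEGF receptor, were expressed at 124 ± 6.78 and 17.2 ± 0.195 CPM in WT (SD, n = 3). Summed over the 18 genes, levels ran from 148 to 160 CPM in WT, 125 to 132 in KD and 108 to 118 in OE. Eng made up most of these sums, at means of 124 CPM in WT, 108 in KD and 84.9 in OE. A list of 8 fibroblast genes summed to 5107 to 5674 CPM in WT, 4845 to 4909 in KD and 4037 to 4131 in OE. Col1a1, a fibrillar collagen gene, made up most of it, whereas Lum and Tcf21 had at most 2 counts in any library. Defining endothelial transcripts were thus at or near 0 in all 3 groups, the unmodified cells included, beside high levels of collagen mRNA. Lists of 8 leukocyte and 8 cardiomyocyte genes summed to at most 5.75 and 2.15 CPM. Smooth muscle and pericyte genes summed to 155 to 163 CPM in WT, 181 to 182 in KD and 87.3 to 91.9 in OE, nearly all from Smtn, while Myh11 stayed at most at 41 counts. These sums moved with the groups, and their part in the results below was not tested; in bulk RNA a smaller share of some cells and less RNA per cell cannot be told apart.

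Levels per exon length, which allow genes to be compared, were widest apart between Fn1 and Prrx1 in WT, on a scale of CPM per kb of joined exons. Fn1, at 476 ± 60.7 CPM per kb (SD, n = 3), and Vim, at 366 ± 23, were the most abundant of the 10. S100a4 followed at 53.2 ± 9.77. Among the factors Twist1 led at 9.87 ± 0.822 and Snai1 followed at 7.82 ± 0.183, ahead of Zeb1 at 2.38 ± 0.205 and Zeb2 at 1.77 ± 0.129. Snai2 at 0.617 ± 0.0739, Twist2 at 0.329 ± 0.0517 and Prrx1 at 0.0406 ± 0.0169 CPM per kb closed the order. No neighbours in this order overlapped between WT libraries. With the length of the longest coding transcript in place of joined exons, chosen after seeing the data, Vim (791) stood above Fn1 (669) and Zeb1 overlapped Zeb2, so the order within these pairs rests on the length used.

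**Figure D1:**
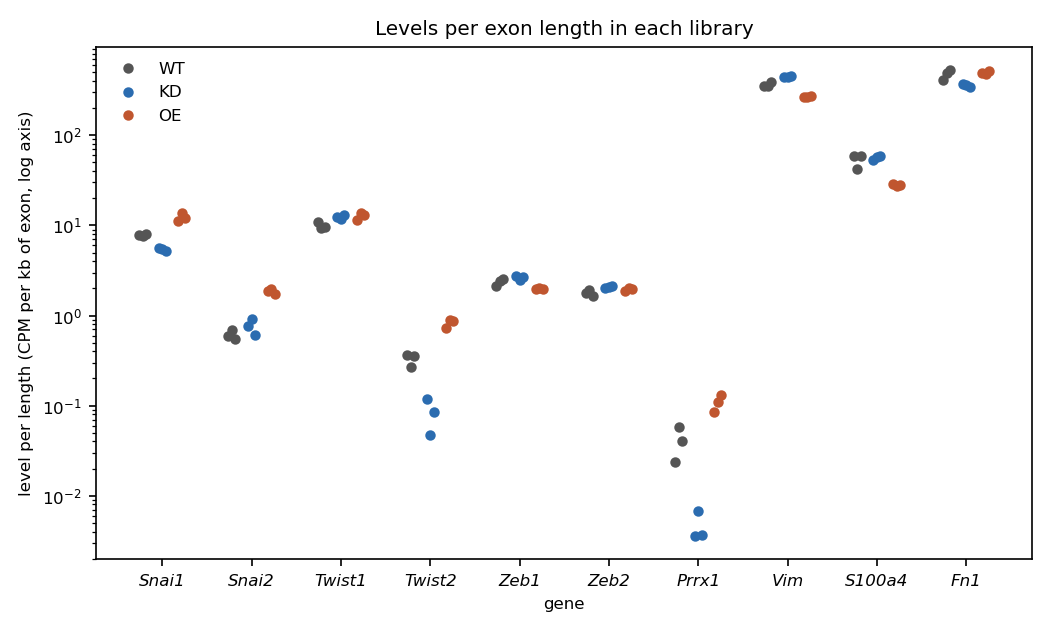
Level per exon length (vertical axis, CPM per kb, log scale) of the 10 genes (horizontal axis) in each of the 9 libraries; each point is 1 library and colours mark WT, KD and OE. Fn1 and Vim lie at 263 CPM per kb or higher in all libraries, and Prrx1 lies lowest in each group.

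In KD Vim, at 447 ± 3.7 CPM per joined kb, stood above Fn1 at 360 ± 14.4 (SD, n = 3). By the longest coding transcript Vim was above Fn1 in KD too (968 against 506), as it was in WT, so a change of order between WT and KD was seen with joined exons only. In OE the lower factors came closer to the others: Snai2 reached 1.86 ± 0.122 and overlapped Zeb2 at 1.94 ± 0.07 by joined exon length, and Snai1 at 12.3 ± 1.27 overlapped Twist1 at 12.8 ± 1.12. By the longest coding transcript Snai2 (1.86) did not overlap Zeb2 (4.24) or Zeb1 (3.5) in OE, while Snai1 and Twist1 still overlapped. Summed over the 7 factors, the level per length was 22.8 ± 0.678 CPM per kb in WT, 23.3 ± 0.619 in KD and 31.8 ± 2.57 in OE. Snai1 held 34.3% ± 0.997 of that sum in WT, 23.3% ± 0.979 in KD and 38.5% ± 1.1 in OE. Twist1 held 43.2% ± 2.3 in WT, 52.8% ± 1.52 in KD and 40.3% ± 1.05 in OE. KD thus had a sum close to that of WT but another make-up, with less Snai1 and more Twist1.

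KD against WT addresses which of the 10 genes differ between the knockdown and the unmodified cells, and OE against WT which differ between the overexpressing and the unmodified cells. Both use the same WT libraries, and whether the differences follow from the level of Zbtb46 was not tested. In KD 7 of the 10 genes were past the threshold of 0.05 for the Benjamini-Hochberg adjusted p of edgeR's quasi-likelihood test, 3 higher and 4 lower, against 21.4% of all 16955 genes tested (11% higher, 10.4% lower). In OE 8 of 10 passed, 5 higher and 3 lower, against 36.4% of all genes (16.9% higher, 19.5% lower). Between OE and KD 8 of 10 passed, 5 higher and 3 lower in OE, against 41.5% (19.4% higher, 22.1% lower). All 10 genes passed the filter on low counts, and since they were chosen with earlier results known, these counts are a description. The genes past the threshold were in each comparison also those whose 3 libraries did not overlap, with Zeb2 in addition between OE and KD; 34.7%, 45.1% and 55.4% of all genes tested did not overlap in KD against WT, OE against WT and OE against KD. Tested against a minimum change of 1.5-fold, 2 genes passed in KD (Twist2 and Prrx1), 3 in OE (Snai2, Twist2 and S100a4) and 6 between OE and KD, so the other differences did not pass at that size.

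**Figure D2:**
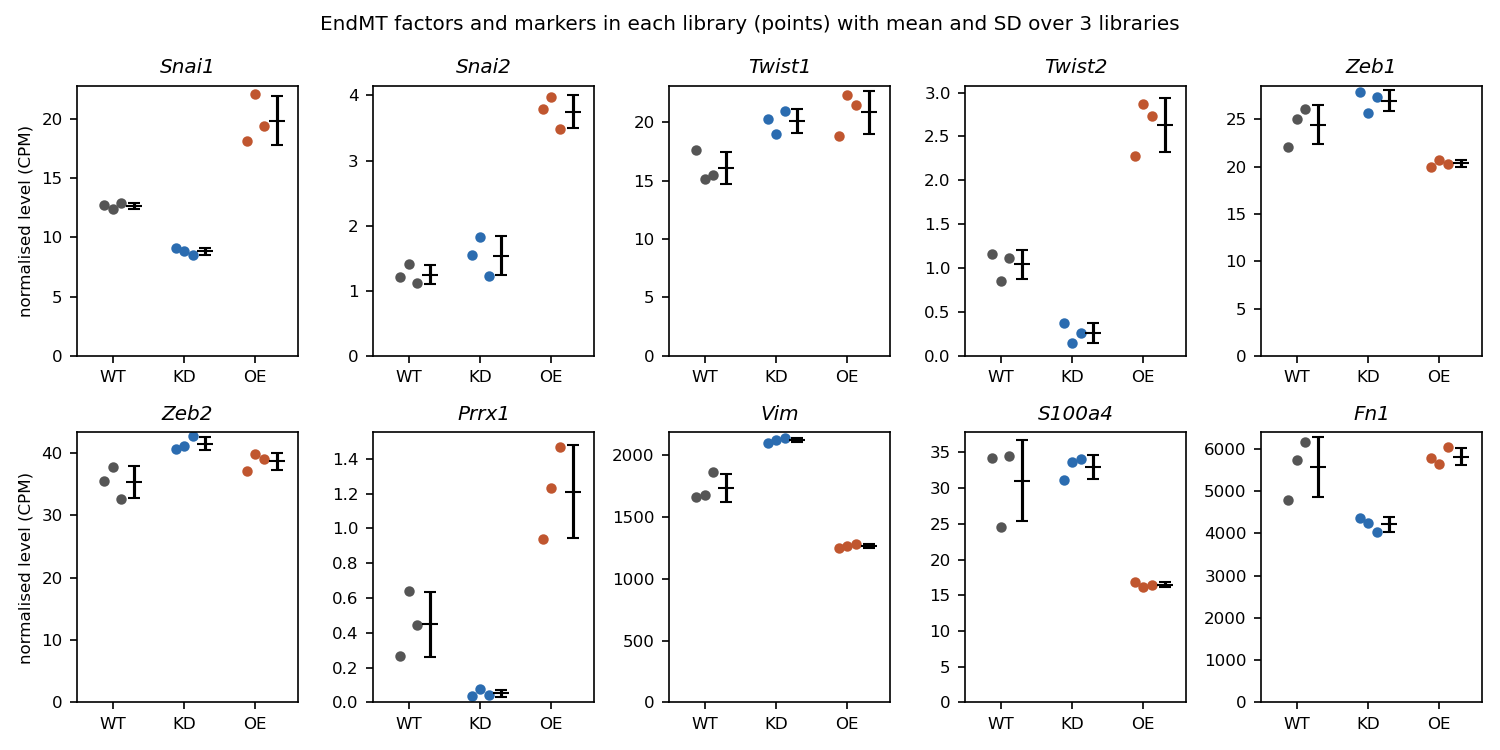
Normalised level (vertical axis, CPM, from 0) of each gene in WT, KD and OE (horizontal axis); points are libraries, and the bar beside them is the mean with SD over 3 libraries. Snai1, Twist2 and Prrx1 step down from WT to KD and up to OE, and Vim steps the other way.

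The Snail family was examined first. Snai1 (ENSMUSG00000042821, chr2:167538195-167542814, plus strand, GENCODE M21 on GRCm38) encodes Snail, a zinc finger repressor of cadherin genes. It stood at 12.7, 12.4 and 12.9 CPM in the WT libraries, 9.13, 8.84 and 8.52 in KD, and 18.1, 22.1 and 19.4 in OE. Neither modified group overlapped WT, and the 2 modified groups lay on opposite sides of it. The log2 fold change was -0.52 (SE 0.035) in KD (adjusted p 2.18e-04, edgeR) and 0.65 (SE 0.087) in OE (adjusted p 3.51e-06, edgeR). Between OE and KD, Snai1 differed by 1.17 on the log2 scale (SE 0.09, adjusted p 6.47e-10, edgeR).

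Snai2 (ENSMUSG00000022676, chr16:14705852-14709385, plus) encodes Slug, a close relative of Snail. Its libraries held 46 to 84 counts in WT, 60 to 78 in KD and 157 to 197 in OE. In CPM it stood at 1.21, 1.41 and 1.12 in WT, 1.55, 1.83 and 1.23 in KD, and 3.79, 3.98 and 3.49 in OE. KD overlapped WT, whereas every OE library lay above all others. The OE rise was 3.01-fold in mean CPM, a log2 fold change of 1.58 (SE 0.11, adjusted p 1.68e-06, edgeR). The KD difference of 0.29 (SE 0.19, adjusted p 0.383, edgeR) did not pass. Within libraries, the ratio of Snai1 to Snai2 per length was 13.1, 10.9 and 14.4 in WT, 7.35, 6.01 and 8.64 in KD, and 5.95, 6.94 and 6.95 in OE. It was thus lower in each modified group than in any WT library, in KD with less Snai1 and in OE with both genes higher.

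Twist1 (ENSMUSG00000035799, chr12:33957671-33959829, plus), a factor needed in cranial and heart valve mesenchyme, had the higher level of the 2 Twist genes. It stood at 17.6, 15.1 and 15.5 CPM in WT, 20.3, 19 and 21 in KD, and 18.8, 22.3 and 21.5 in OE. Both modified groups lay above WT and overlapped each other. The log2 fold change was 0.33 (SE 0.08, adjusted p 0.00671, edgeR) in KD and 0.38 (SE 0.10, adjusted p 9.38e-04, edgeR) in OE. Of the 10 genes it was the 1 that passed in both comparisons with the same sign, while Snai1, Twist2, Prrx1 and Vim passed in both with opposite signs.

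Twist2 (ENSMUSG00000007805, chr1:91801461-91848028, plus), also called Dermo1, is a Twist relative of dermal and bone precursors. It had 44 to 51 counts per library in WT, 6 to 19 in KD and 107 to 142 in OE. These were 1.16, 0.857 and 1.12 CPM in WT, 0.377, 0.151 and 0.266 in KD, and 2.28, 2.87 and 2.73 in OE, with no overlap between any 2 groups. Twist2 differed from WT by -1.92 on the log2 scale in KD (SE 0.35, adjusted p 1.30e-04, edgeR) and by 1.34 in OE (SE 0.16, adjusted p 2.08e-04, edgeR), and OE was 9.92-fold above KD in mean CPM. Of all genes tested, 1.34% changed by more than Twist2 in KD and 4% in OE. The antisense gene Gm29100 shares 1477 exon bases with Twist2 and had 6 to 16 counts in WT, 1 to 8 in KD and 21 to 39 in OE. Because the use of strand in counting is not stated, reads of the pair cannot be told apart. The ratio of Twist1 to Twist2 per length was 27 to 34.4 in WT, 105 to 246 in KD and 15.2 to 16.1 in OE.

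Prrx1 (ENSMUSG00000026586, chr1:163245119-163313710, minus) was the weakest of the factors. It had 10, 38 and 20 counts in the WT libraries, 2, 3 and 2 in KD, and 44, 61 and 66 in OE, or 0.264, 0.638 and 0.447 CPM, then 0.0397, 0.0753 and 0.041, then 0.937, 1.23 and 1.47. The 3 groups did not overlap, and Prrx1 was all but absent from the KD libraries. From 7 counts in KD against 68 in WT, the level in KD was 0.105 of that in WT, with an exact binomial 95% interval of 0.0408 to 0.229 that covers counting error only. The fitted log2 fold change was -3.12 in KD (adjusted p 2.70e-04, edgeR) and 1.39 in OE (adjusted p 0.00497, edgeR). The SE of 0.38 for each comes from log2 CPM with a prior count of 2, not from the fit. At the counts of the KD libraries that prior narrows the spread, so the SE in KD is too small. From 171 counts in OE, the ratio of OE to KD was 24, with a counting interval of 11.4 to 60.6.

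**Figure D3:**
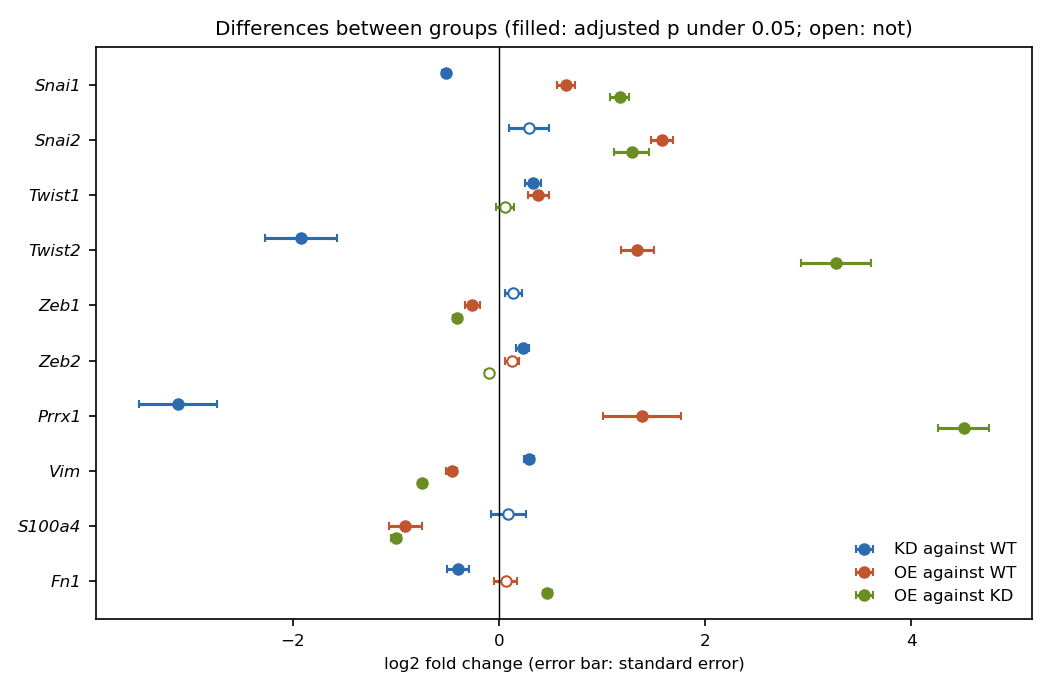
Log2 fold change (horizontal axis) of each gene (vertical axis) for KD against WT, OE against WT and OE against KD, with the standard error as bar; filled points passed an adjusted p of 0.05 and open points did not. Twist2 and Prrx1 lie farthest from 0 for OE against KD, at 3.27 and 4.51, and for KD against WT, at -1.92 and -3.12. The points of Vim, S100a4 and Zeb1 for OE lie left of 0 in both comparisons. The bars come from log2 CPM with a prior count of 2, not from the fit, and are too short for Prrx1 where KD is compared.

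The Zeb factors, zinc finger and homeodomain repressors that miR-200 family members restrain, changed little. Zeb1 (ENSMUSG00000024238, chr18:5591860-5775467, plus) stood at 22.1, 25 and 26.1 CPM in WT, 27.9, 25.7 and 27.3 in KD, and 20, 20.7 and 20.3 in OE. OE lay below both other groups, while KD overlapped WT. The log2 fold change in OE was -0.26 (SE 0.075, adjusted p 0.00549, edgeR), and the KD difference of 0.14 (SE 0.081, adjusted p 0.167, edgeR) did not pass. Zeb2 (ENSMUSG00000026872, chr2:44983632-45117395, minus) stood at 35.6, 37.8 and 32.7 CPM in WT, 40.7, 41.1 and 42.8 in KD, and 37.2, 39.9 and 39 in OE. All its KD libraries lay above those of WT and OE, at a log2 fold change of 0.23 over WT (SE 0.065, adjusted p 0.00871, edgeR). That call was lost without KD replicate 3 (adjusted p 0.0536, edgeR) and with library totals alone (0.0953). In OE the difference of 0.13 did not pass (adjusted p 0.11, edgeR); it passed without WT replicate 2 (0.0264) and with upper-quartile scaling (0.0336). Between OE and KD the Zeb2 libraries did not overlap, but the difference of -0.10 (SE 0.038, adjusted p 0.189, edgeR) did not pass. Antisense genes share 198 exon bases with Zeb1 and 653 with Zeb2 and had at most 17 and 14 counts in any library. The ratio of Zeb2 to Zeb1 per length was 0.83, 0.779 and 0.645 in WT, 0.751, 0.824 and 0.809 in KD, and 0.958, 0.992 and 0.988 in OE, so all OE libraries had the higher share of Zeb2.

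Among the markers, Vim (ENSMUSG00000026728, chr2:13573927-13582826, plus) stood at 1665, 1679 and 1861 CPM in WT. It was higher in each KD library, at 2103, 2126 and 2137 CPM, and lower in each OE library, at 1246, 1262 and 1279 CPM. The log2 fold change was 0.29 in KD (SE 0.052, adjusted p 2.75e-05, edgeR) and -0.46 in OE (SE 0.053, adjusted p 1.70e-08, edgeR). The SD between the KD or OE libraries, 17.5 and 16.4 CPM, was smaller than that between the WT libraries, 109 CPM, and far smaller than the differences between groups. Of the 10 genes Vim had the lowest adjusted p between OE and KD, 5.31e-12 in edgeR's test, at a log2 difference of -0.75 (SE 0.013).

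S100a4 (ENSMUSG00000001020, chr3:90603771-90606045, plus) stood at 34.2, 24.5 and 34.5 CPM in WT, 31.1, 33.7 and 34.1 in KD, and 16.9, 16.1 and 16.5 in OE. OE lay below every other library, and KD lay within the range of WT. The OE difference was -0.91 on the log2 scale (SE 0.16, adjusted p 7.32e-06, edgeR) and the KD difference 0.091 (SE 0.17, adjusted p 0.613, edgeR). WT replicate 2 was lower than the other WT libraries, and without it the KD difference was -0.061, again not passing (adjusted p 0.562, edgeR). The predicted gene Gm42674 shares 302 exon bases with S100a4 and had 0 counts in all libraries.

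Fn1 (ENSMUSG00000026193, chr1:71585520-71653200, minus) stood at 4778, 5740 and 6162 CPM in WT, 4361, 4233 and 4029 in KD, and 5773, 5638 and 6027 in OE. All KD libraries lay below all WT libraries, and OE lay within the range of WT. The KD difference was -0.40 on the log2 scale (SE 0.11, adjusted p 0.00406, edgeR); without WT replicate 2 it was -0.38 with an adjusted p of 0.051, and the call was lost. The OE difference of 0.064 did not pass (adjusted p 0.585, edgeR), and its sign turned without WT replicate 1 (-0.034) and with library totals alone (-0.0028). Against KD, Fn1 was higher in OE by 0.47 on the log2 scale (SE 0.044, adjusted p 6.30e-04, edgeR). The ratio of Fn1 to Vim per length, which does not depend on library scaling, was 1.16 to 1.39 in WT, 0.765 to 0.842 in KD and 1.81 to 1.91 in OE, with no overlap between groups.

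**Figure D4:**
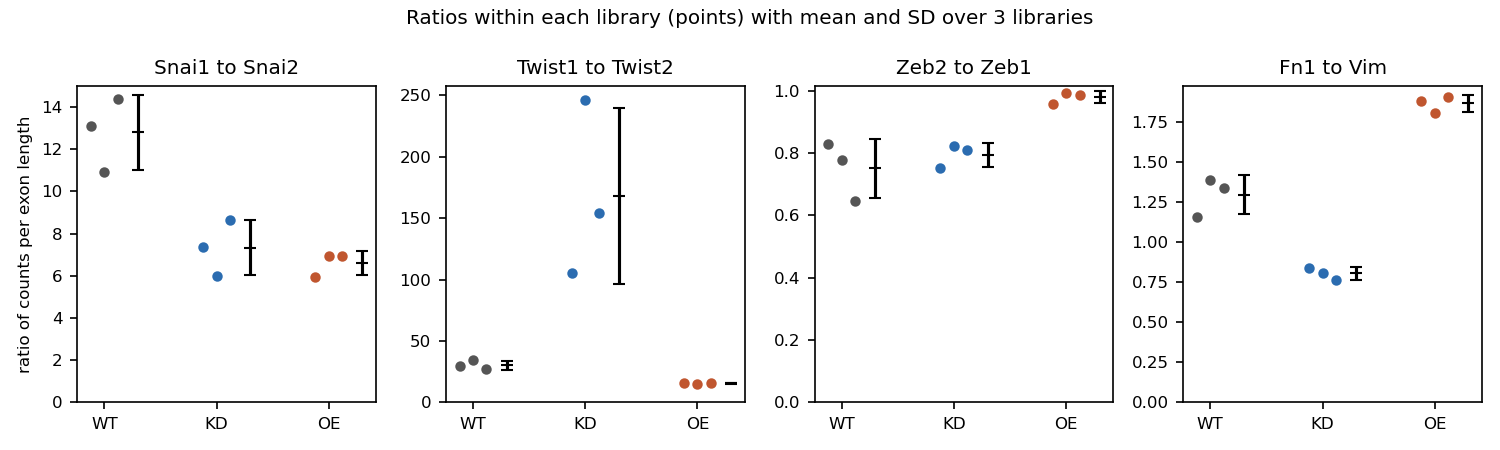
Ratios of counts per joined exon length within each library (vertical axes, from 0) for 4 pairs of genes in WT, KD and OE (horizontal axes); points are libraries and bars the mean with SD over 3 libraries. The ratio of Twist1 to Twist2 is highest in KD, and that of Fn1 to Vim is lowest in KD and highest in OE.

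Position in the genome was also examined, through the median change of the genes around each of the 10. The windows of 20 Mb that hold the 10 genes had median log2 fold changes of -0.05 to 0.052 in KD and -0.065 to 0.071 in OE. With these medians removed, Vim stood at 0.24 in KD and -0.53 in OE, and S100a4 at -0.91 in OE, so the differences of these markers were as large or nearly as large within their windows. No sign changed among the 10 genes in either comparison with WT.

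The genes most like each of the 10 were sought over the 9 libraries, as the smallest root mean square difference between log2 levels centred on each gene's own mean. Snai1 was closest to Smarca2, a subunit of the SWI/SNF chromatin remodeller (0.088 log2 units), at 49.4 ± 1.57 CPM in WT, 34.4 ± 0.989 in KD and 72.5 ± 1.89 in OE (SD, n = 3). Twist2 was closest to Adamts2, a procollagen N-proteinase (0.222), at 9.83 ± 0.148, 2.87 ± 0.796 and 22.9 ± 1.5 CPM, and Snai2 to Bnip3, a mitophagy receptor (0.178), at 7.5 ± 0.819, 7.11 ± 1.7 and 21.1 ± 0.902 CPM. Vim was closest to Prnp, the prion protein gene (0.0335), and Fn1 to Celsr1, an atypical cadherin (0.0232). S100a4 was closest to Hsbp1 (0.0989), Zeb1 to Dag1, the dystroglycan gene (0.0348), Zeb2 to Slc30a9 (0.0323) and Twist1 to Esd and Bard1 (both 0.0648). Prrx1, with a mean under 1 CPM, was not compared. The 9 libraries fall into 3 groups, so likeness here mostly means the same pattern over groups.

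Other genes of the transition were read from the same fit, beginning with what induces it. TGF-beta ligands act through the receptors Tgfbr1 and Tgfbr2 and SMAD proteins to switch on the factors above. Of 21 tested genes of the TGF-beta and BMP list, 6 were higher and 2 lower in KD (median log2 fold change 0.13), and 2 were higher and 9 lower in OE (median -0.15); the medians over all genes were -0.0022 and 0.002, and 11% of all genes were higher and 10.4% lower in KD, against 16.9% and 19.5% in OE. Tgfbr2, the type II receptor, stood at 264 ± 13.7 CPM in WT, 372 ± 12 in KD and 114 ± 3.41 in OE (SD, n = 3), a rise of 0.49 and a change of -1.21 on the log2 scale (adjusted p 7.70e-08 and 2.21e-14, edgeR). It thus followed the direction of Vim and not that of Snai1. The ligand genes Tgfb2 and Tgfb3 were lower in OE by -1.01 and -0.94 on the log2 scale (adjusted p 2.42e-12 and 1.82e-11, edgeR), and Smad6, an inhibitory SMAD, by -0.79 (7.53e-12). Tgfb3 was also lower in KD (-0.33, adjusted p 1.27e-04, edgeR), where the Tgfb2 difference of 0.14 did not pass (0.0586). The 20 Mb window of Smad6 had a median of -0.34 in OE, and with it removed Smad6 stood at -0.45.

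Of 32 tested partners and regulators of the factors, 5 were higher and 7 lower in KD (median 0.018), where 11% of all genes were higher and 10.4% lower. In OE 8 were higher and 11 lower (median -0.041), where 16.9% and 19.5% of all genes were. Tcf3, the E protein that pairs with TWIST, stood at 149 ± 10.3 CPM in WT, 120 ± 4.94 in KD and 147 ± 3.54 in OE (SD, n = 3); it was lower in KD (log2 fold change -0.31, adjusted p 1.15e-04, edgeR), and the OE difference of -0.02 did not pass (0.801). Tcf4, another E protein, did not pass in KD or OE (adjusted p 0.75 and 0.0805, edgeR), but did in OE without WT replicate 2 (0.0209) and with upper-quartile scaling (0.0334). Tcf12, also an E protein, was lower in OE (-0.47, adjusted p 4.23e-08, edgeR), and its KD difference of 0.054 did not pass (0.45). Id2, which sequesters E proteins, went from 43.6 ± 2.14 CPM in WT to 34.7 ± 1.94 in KD and 87.7 ± 1.25 in OE, the same directions as Snai1, at -0.33 and 1.01 on the log2 scale (adjusted p 1.69e-04 and 5.50e-12, edgeR). Hdac1, a deacetylase that Snail recruits, also followed them, at -0.46 and 0.41 (2.19e-07 and 2.30e-07). The 20 Mb window of Hdac1 moved the same way, with medians of -0.18 in KD and 0.35 in OE; with these removed, Hdac1 stood at -0.28 and 0.059. Foxc1, a forkhead factor of mesenchyme, fell in OE by 1.94 on the log2 scale, from 65.5 ± 1.2 to 17.1 ± 0.828 CPM (adjusted p 8.36e-16, edgeR). Sox4 was lower in KD (-0.64, 4.67e-07).

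Id1 and Id3 are targets of BMP signalling. Id1 was lower by 0.16 to 0.17 on the log2 scale in KD and OE, and Id3 was at 173 ± 6.29 CPM in WT, 176 ± 5.6 in KD and 159 ± 7.28 in OE (SD, n = 3), a log2 fold change of -0.13 in OE (adjusted p 0.0333, edgeR). The window of Id3 had medians of -0.18 in KD and 0.35 in OE, and with these removed Id3 stood at 0.20 and -0.47. The Id1 call in KD was lost without KD replicate 1 (adjusted p 0.0928, edgeR) or KD replicate 2 (0.0648) and with library totals alone (0.0508), and in OE without OE replicate 3 (0.0506). The Id3 call in OE was lost with upper-quartile scaling (0.133), with only the 2 groups compared (0.0564) and without any 1 of 4 libraries, at an adjusted p of 0.131 (WT replicate 1), 0.0544 (KD replicate 3), 0.0808 (OE replicate 1) and 0.191 (OE replicate 3).

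The wider mesenchymal and matrix list, of which 28 of 31 genes were tested, had 12 genes higher and 4 lower in KD (median log2 fold change 0.073) and 3 higher and 19 lower in OE (median -0.37). Of all genes, 11% were higher and 10.4% lower in KD, and 16.9% and 19.5% in OE. Between OE and KD 3 were higher and 23 lower (median -0.41, against 0.011 over all genes, of which 19.4% were higher and 22.1% lower). Lox, a collagen cross-linking enzyme, stood at 634 ± 56.6 CPM in WT, 861 ± 23.1 in KD and 444 ± 4.02 in OE (SD, n = 3), with log2 fold changes of 0.44 and -0.52 (adjusted p 2.78e-06 and 9.68e-08, edgeR). Ddr2, a collagen receptor, was an exception, higher in OE at 150 ± 4.26 against 79.5 ± 6.47 CPM (0.91, 1.67e-11). Tnc, tenascin C, was lower in both groups, at 22.6 ± 0.517 CPM in KD and 19.1 ± 0.961 in OE against 36.9 ± 3.07 in WT (-0.71 and -0.96, adjusted p 2.31e-07 and 7.66e-10, edgeR). So was Acta2, at 2.8 ± 0.0386 CPM in KD and 1.75 ± 0.176 in OE against 7.73 ± 1.01 in WT (-1.47 and -2.14, adjusted p 2.67e-07 and 4.84e-10, edgeR). The collagen gene Col3a1 was lower in OE (-1.58, adjusted p 3.12e-17, edgeR), and its KD difference of 0.042 did not pass (0.501). This list and the fibroblast list share 3 genes.

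Families of the 3 markers were read in the same way, beside the 21.4% of all genes that passed in KD and the 36.4% that passed in OE. Of 12 intermediate filament and linker genes, 2 were higher and 2 lower in KD (median 0.05) and 1 higher and 4 lower in OE (median -0.03). With both directions together, that share in OE was near that of all genes. Prph, the filament peripherin, had the pattern of Vim, at 94.8 ± 6.27 CPM in WT, 114 ± 3.84 in KD and 36.7 ± 0.135 in OE (SD, n = 3), with log2 fold changes of 0.26 and -1.37 (adjusted p 5.71e-04 and 2.77e-14, edgeR). Nes, nestin, was lower in OE (-0.45, 1.06e-06). The lamin gene Lmnb2 went the other way from Vim, at -0.17 in KD and 0.15 in OE (adjusted p 0.0116 and 0.0147, edgeR). Lmnb1, another lamin gene, was lower in KD (-0.40, 1.51e-07). Its OE difference of 0.089 did not pass (0.0702), but did with upper-quartile scaling (0.0132). Of 11 S100 family genes, a list that includes the S100-binding gene S100pbp, 1 was higher and 1 lower in KD (median -0.012) and 1 higher and 3 lower in OE (median 0.042), shares near those of all genes. S100a1 and S100a16 were among those lower in OE, at -0.51 and -0.43 (adjusted p 5.53e-06 and 2.25e-05, edgeR). S100a1 was also the 1 lower in KD (-0.33, 0.00161). Of 17 genes for fibronectin receptors and adhesion proteins, 7 were higher and 3 lower in KD (median -0.014) and 0 higher and 12 lower in OE (median -0.26), where 16.9% of all genes were higher and 19.5% lower. The integrin genes Itga5, Itgb1 and Itgav were counted in the mesenchymal and matrix list instead. In OE Itga5 was higher (0.28, adjusted p 8.39e-06, edgeR), Itgb1 was lower (-0.26, 3.25e-04) and Itgav did not pass (-0.15, 0.163). Tns3, a tensin of fibrillar adhesions, fell from 410 ± 23.2 to 193 ± 0.567 CPM in OE (-1.09, 5.04e-14) and rose to 490 ± 11.3 in KD (0.26, 1.49e-04). Its window had a median of -0.52 in OE, and with it removed Tns3 stood at -0.57.

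**Figure D5:**
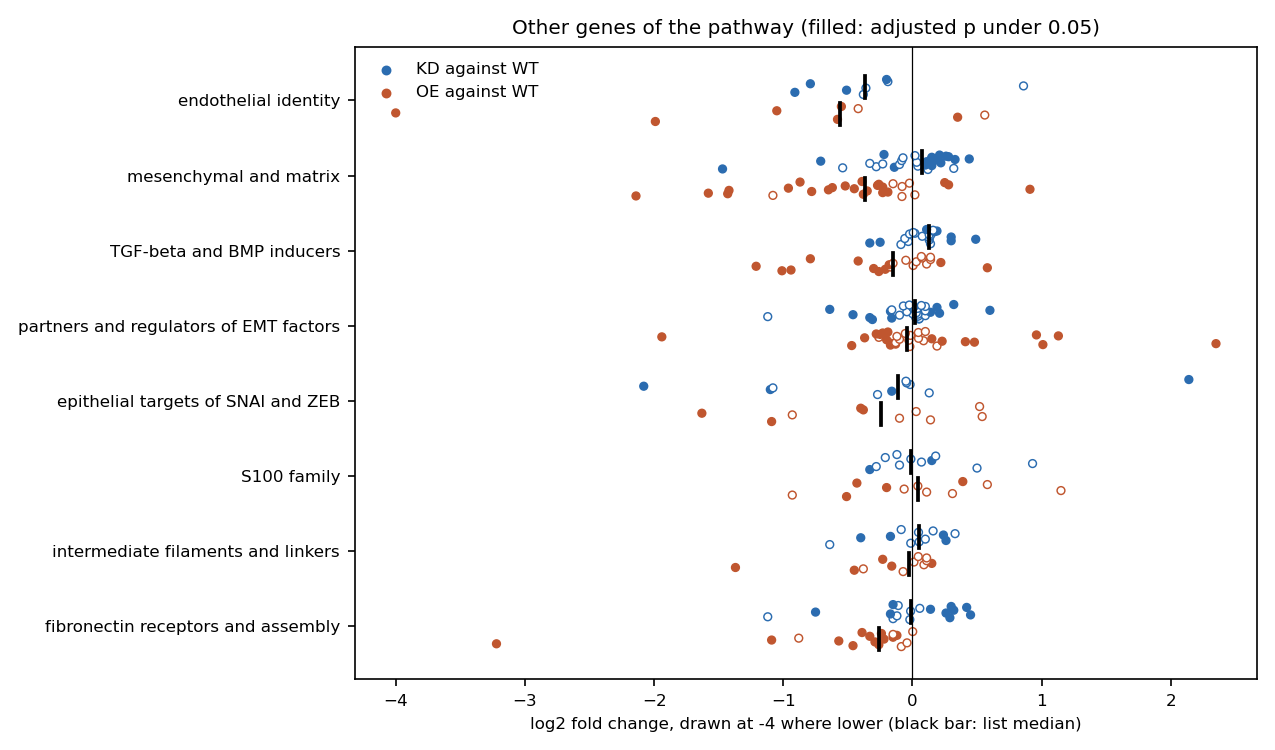
Log2 fold change (horizontal axis) of each tested gene of 8 lists (vertical axis) in KD and in OE against WT; filled points passed an adjusted p of 0.05, and the black bar is the list median. The medians of the mesenchymal and matrix list lie at 0.073 in KD and -0.37 in OE, and Fli1, with 0 counts in OE, is drawn at the left end of the axis because its fitted value lies lower.

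The targets that SNAI and ZEB factors are known to repress were mostly too weak to read. Of 22 epithelial genes 10 were tested, with 1 higher and 3 lower in KD (median -0.11) and 0 higher and 4 lower in OE (median -0.24). Of all genes, 21.4% passed in KD (11% higher, 10.4% lower) and 36.4% in OE (16.9% higher, 19.5% lower). With both directions together the share in OE was near that of all genes. The 4 genes that passed were lower, Crb3 among them. Its OE call was lost without WT replicate 1 (adjusted p 0.118, edgeR), OE replicate 1 (0.0521) or OE replicate 2 (0.0844). In KD Rab25 was higher (2.14, adjusted p 0.00427, edgeR), while Ocln and Crb3 were lower (-1.10 and -2.08, 0.0158 and 0.0101). Each of these had a mean under 1 CPM in WT and KD. The Ocln call was lost without KD replicate 1 (adjusted p 0.0907, edgeR). The Crb3 call was lost without WT replicate 1 (0.0692) or KD replicate 2 (0.0604). Cdh1, the E-cadherin gene and the classic target of Snail, was not tested, at 0.0485 ± 0.0505 CPM in WT, 0.124 ± 0.0245 in KD and 0.192 ± 0.0939 in OE (SD, n = 3). Esrp2, an epithelial splicing factor, was lower in OE (-0.40, adjusted p 1.24e-04, edgeR), as was the plakophilin gene Pkp2 (-0.38, 8.67e-06). The median of this list in OE was 0.073 with no filter beyond 1 count, so its sign rests on the filter.

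Of the 18 endothelial genes 8 were tested, with 0 higher and 4 lower in KD (median -0.37) and 1 higher and 5 lower in OE (median -0.56). Of all genes, 11% were higher and 10.4% lower in KD, and 16.9% and 19.5% in OE. In KD the median was -0.22 without WT replicate 2. Tek, the angiopoietin receptor gene, was lower in OE at 0.459 ± 0.12 against 1.83 ± 0.114 CPM (-1.99, adjusted p 3.12e-06, edgeR). Fli1, an ETS factor, had 16 to 19 counts in WT and 0 in each OE library, at least 5.9-fold lower when each OE library is set at the floor of 3 counts. The median of its window in OE was -0.35 on the log2 scale, far smaller than that bound. Eng was lower in KD and OE (-0.20 and -0.55, adjusted p 0.00383 and 1.04e-08, edgeR), as was Egfl7 (-0.79 and -1.05, 0.00138 and 3.66e-05). Flt1, the 1 gene of the list higher in OE, had the directions of Snai1, at 12.1 ± 0.979 CPM in KD and 21.9 ± 1.58 in OE (-0.51 and 0.35, adjusted p 1.09e-04 and 0.00151, edgeR).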

How the data were processed

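The RNA of 9 MCEC libraries (3 each of WT, KD and OE) was poly-A selected and sequenced from both ends, per the labels' protocols. The authors deposited raw counts, whole numbers for each gene and library, judged from the values; GRCm38 and mm10 are named in the submitters' processing notes, and the aligner, counting program, use of strand and annotation are not given in the sources used here. Of 55774 rows, 455 repeated 168 genes with identical counts and were counted once.

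Counts were tested with edgeR 4.0.16 (R 4.3.3): filterByExpr, TMM, 1 robust quasi-likelihood fit over all groups, Benjamini-Hochberg adjustment over the 16955 genes tested, threshold 0.05. An exact test of 3 against 3 libraries cannot go below 0.1. Standard errors come from the SDs of log2 CPM with a prior count of 2, not from the fit, and are too small where counts are near that prior. Positions and exon lengths are from GENCODE M21, promoters from RefSeq. The 10 genes and all lists were chosen with earlier results of these data known. Named besides the 10 were, per pathway list, genes among the 2 lowest p in a comparison, with Tcf3, Tcf4, Id1, Id2, Id3 and Cdh1 by choice, and the nearest genes by pattern (mean of at least 5 CPM). Tcf12, Lmnb2, Itga5, Itgb1 and Itgav were named after the values were seen, and the counts of kept values below leave them out. The alternatives, with limma 3.58.1 and DESeq2 1.42.0 among them, are given in the closing section. The procedure was tested on simulated data with large changes in well-counted genes, which does not cover low counts or small changes.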

Additional observations from a re-analysis of the deposited data

How the results depend on the processing

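The 12 alternatives were 3 other scalings, removal of ribosomal RNA features, 2 other filters, DESeq2 and limma-voom, a fit of only the groups compared, a replicate block, a minimum fold change of 1.5 and removal of window medians; 9 more fits left out 1 library each. The number of the 10 genes past the threshold stayed within 1.5 times its value, except with the minimum fold change of 1.5, where it was 2 in KD (7 in the report) and 3 in OE (8). Removal of window medians shifted only the log2 fold changes and kept the p-values of the main fit, so it could not change this number. Leaving out 1 library gave 6 to 7 in KD, 8 to 9 in OE and 8 to 8 between OE and KD. With at least 10 counts in every library Twist2 and Prrx1 were not tested, so the numbers were 5, 6 and 6. With the replicate block they were 7, 8 and 8. Deviations of same-numbered libraries correlated at -0.121 to 0.0616, and in 9 of 18 checks the same number correlated best. With 3 libraries per group, these values cannot show whether same-numbered libraries share anything beyond the number.

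Signs turned, in each case for differences that did not pass. With 1 library left out, the log2 fold change in KD ranged from -0.061 to 0.18 for S100a4, from -0.0064 to 0.10 for Ddr2 and from -0.054 to 0.02 for Nes. In OE it ranged from -0.034 to 0.14 for Fn1, from -0.012 to 0.034 for Plec, from -0.088 to 0.95 for Rab25 and from -0.081 to 0.02 for Tcf3, and between OE and KD from -0.044 to 0.025 for Id1. With library totals alone it was -0.0049 for Ddr2 and -0.0096 for Id3 in KD, and -0.0028 for Fn1 and -0.05 for Plec in OE. With upper-quartile scaling it was -0.0054 for Id3 in KD, 0.013 for Tcf3 in OE and 0.055 for Id1 between OE and KD. With window medians removed it was -0.10 for Col3a1, -0.0062 for Ddr2 and 0.036 for Nes in KD, and -0.012 for Twist1 and 0.014 for Id1 between OE and KD. The cause was not tested. For the named genes of the lists, 2242 of 2384 values kept their direction and side of the threshold. These include the values with window medians removed, where only the direction could change. Low counts limit the precision of Snai2, Twist2 and Prrx1.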
